A study of Equus asinus with 6 samples.

Results

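Fatty acid oxidation breaks fatty acids down to acetyl-CoA for energy. A fatty acid is first activated to its acyl-CoA by an acyl-CoA synthetase, carried into the mitochondrion as an acylcarnitine, and shortened there in repeated rounds of dehydrogenation, hydration, dehydrogenation and thiolytic cleavage, with electrons passed to the respiratory chain through the electron transfer flavoprotein. Peroxisomes run a related pathway on very long and branched chains. Skeletal muscle is one of the main tissues that use this pathway, and intramuscular fat (IMF), the fat between and within muscle fibres, is one of the places in muscle where fatty acids are stored.

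A set of 35 genes of mitochondrial and peroxisomal fatty acid oxidation was looked up by gene name in the table of read counts, and 34 of the 20873 listed genes matched. The remaining gene, PHYH, was not listed under that name and is given once, by identifier. The tissue was longissimus dorsi, a long back muscle, taken from donkeys (Equus asinus) of the Guangling breed at 24 months of age, collected no later than 30 minutes after slaughter and frozen in liquid nitrogen. Muscle of high IMF content gave 3 libraries and muscle of low IMF content 3. No treatment is named, both groups share breed, age and muscle, and the sources used here do not give the fat content itself, the sex or whether each library is a separate animal. The p-values cover no more than the variation among the libraries, some of which may be technical. Because the tissue is bulk muscle, less RNA per cell and fewer cells of a type cannot be told apart.

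The libraries held 39052998 to 47494157 assigned reads. Skeletal muscle markers matched the labelled tissue, with skeletal actin ACTA1 at 24636 to 39084 CPM and muscle creatine kinase CKM at 20884 to 62438 CPM. CPM is a read count relative to the reads of its library, after trimmed-mean (TMM) scaling. The libraries were far from equally alike within a group. Across genes of at least 1 CPM, the log2 ratios of low IMF replicates 2 and 3 had an SD of 0.28. Every other pair had 0.65 to 1.04. Their chi-square of 7.70 per degree of freedom was above sampling noise, against 118 to 560 for every other pair. That value cannot tell separate animals from repeated libraries of 1 sample, and they were counted as 2 libraries. With these replicates so alike, low IMF replicate 1 often stood alone in its group.

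Per gene length, the pathway was dominated by its mitochondrial enzymes. In FPKM, the deposited read count per kilobase of gene length, scaled to sequencing depth, the 9 enzymes of the mitochondrial spiral held on average 49.4% of the summed level of the 34 genes, with 46.1% to 55.1% in single libraries. The 3 electron transfer genes held 15.6%, the 6 genes grouped as carnitine shuttle 12%, the 3 auxiliary enzymes 10.3%, the 5 acyl-CoA synthetases 5.21% and the 7 peroxisomal genes 4.24%. The carnitine shuttle group was CPT1A, CPT1B, CPT2, CRAT, CROT and MLYCD. The summed level was 2054, 1537 and 1810 FPKM in the high IMF libraries, in replicate order, against 1727, 1743 and 1734 FPKM in the low. FPKM carries no TMM scaling. Summed as TMM-scaled CPM, the 34 genes had 4220, 3342 and 5110 CPM in high IMF muscle. The low IMF sums were 3594, 4666 and 4504 CPM, less alike than in FPKM. On both scales the high IMF libraries lay on both sides of the low IMF libraries.

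**Figure D1:**
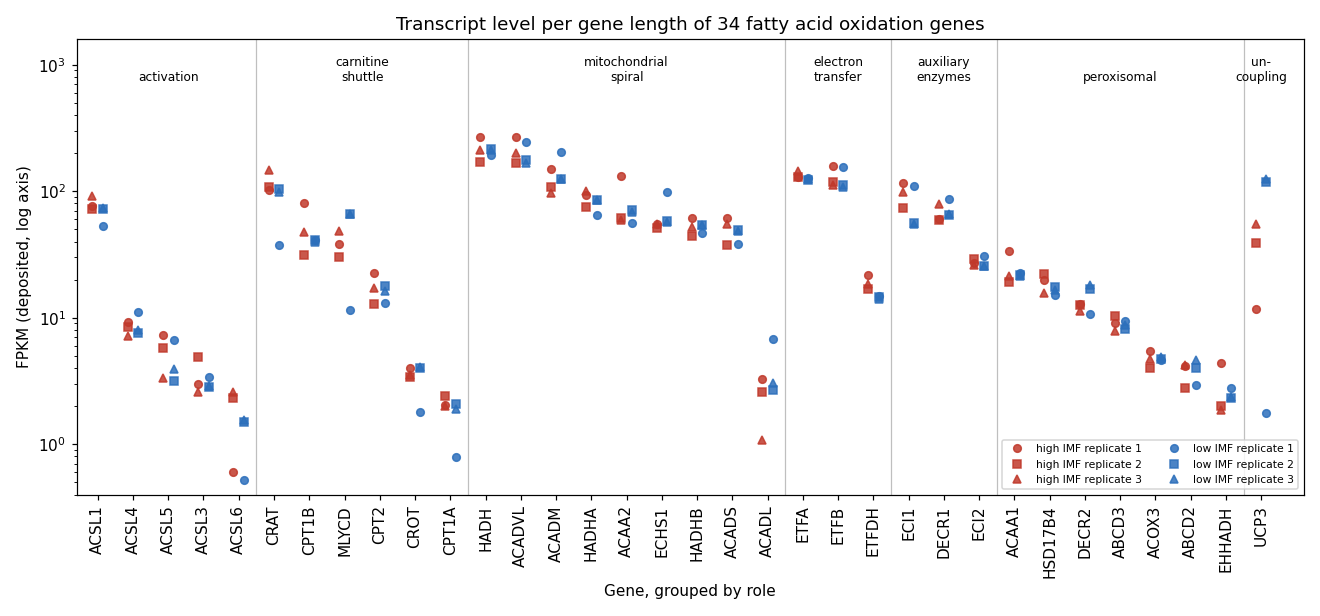
Deposited FPKM (log axis) of each of the 34 genes in the 6 libraries, grouped by role and ordered by mean level; red symbols are high IMF and blue symbols low IMF libraries, and circles, squares and triangles are replicates 1, 2 and 3. HADH and ACADVL lead with means of 211.6 and 204.5 FPKM, while UCP3 spreads from 1.76 to 125.9 FPKM.

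The highest mean levels belonged to HADH (211.6 FPKM), the short-chain hydroxyacyl-CoA dehydrogenase, ACADVL (204.5 FPKM), the very-long-chain acyl-CoA dehydrogenase, ACADM (134 FPKM), the medium-chain acyl-CoA dehydrogenase, and ETFA (129.7 FPKM), the alpha subunit of the electron transfer flavoprotein. Of the acyl-CoA synthetases, ACSL1 had a mean of 73.3 FPKM, while ACSL4, ACSL5, ACSL3 and ACSL6 had 8.58, 5.01, 3.27 and 1.51 FPKM. The muscle form of carnitine palmitoyltransferase 1, CPT1B, which makes acylcarnitine at the outer mitochondrial membrane, was 13.1 to 52.2 times the level of the liver form CPT1A per length. The long-chain acyl-CoA dehydrogenase ACADL, at 3.24 FPKM, was the lowest of the 4 acyl-CoA dehydrogenases, and ACADM was 29.9 to 89.6 times as high.

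HADHA and HADHB, which together form the mitochondrial trifunctional protein, had an FPKM ratio of 1.51, 1.68 and 1.91 in high IMF muscle, against 1.37, 1.57 and 1.58 in low IMF muscle. The ratio of ETFA to ETFB, the subunits of the electron transfer flavoprotein, was 0.815 to 1.3 in high and 0.827 to 1.15 in low IMF muscle, a spread of 1.59-fold over the 6 libraries, against 1.39-fold for HADHA over HADHB. Both ratios overlapped between the groups. The ratio of CPT1B to CPT1A was less even, at 40, 13.1 and 24 in high IMF muscle. In low IMF muscle it was 52.2, 19.6 and 20.8, again with overlap. Of the ratios computed, only ACADVL over ACADM did not overlap. It was 1.81, 1.55 and 2.08 in high IMF muscle, against 1.21, 1.41 and 1.35 in low IMF muscle. A ratio within a library does not depend on how the library is scaled, and this difference was not tested.

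Whether these transcripts differ between muscle rich and poor in fat was the question of the comparison. Among the 34 genes, all of which passed the filter on low counts, edgeR's quasi-likelihood test called 0 at a Benjamini-Hochberg adjusted p under 0.05, where the share called over all 15933 genes was 0%. At an unadjusted p under 0.05 there was 1 of the 34, ACADL, where 7.27% of all genes reached that level (4.53% higher and 2.74% lower in high IMF). The DESeq2 Wald test also called 0 of the 34 after adjustment and had 2 (ACADL and ACADM) at an unadjusted p under 0.05, while limma-voom had 0 at either level; over all genes DESeq2 called 1.16% and limma-voom 0%. The share of 7.27% belongs to the edgeR fit alone. The authors' deposited table held, for the 34, 0 genes with an adjusted p under 0.05, and the smallest was 0.368, for ACADL. Over all genes it held 194. Its values nearly repeat those of the DESeq2 test, with an unadjusted p of 0.0189 for ACADL in both. It is therefore no separate evidence.

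The log2 folds of high over low IMF ran from -1.33 for UCP3 to 0.52 for ACSL6, with a median of -0.01 beside 0.01 over all genes. Both ends moved with the method or with single libraries: UCP3 was at -0.18 in limma-voom, and ACSL6 moved to 0.0078 when high IMF replicate 3 was left out, to 0.95 when high IMF replicate 1 was and to 0.12 when low IMF replicate 1 was. Of the 34 log2 folds 19 were negative, where 48.8% of all genes were, and 4 were at least 0.5 in size, where 22.7% of all genes were. The median size of the log2 fold was 0.15 in the set and 0.22 over all genes. With library size only in place of TMM, the median of all genes moved to 0.15 and that of the 34 genes to 0.13, so that 24 of the 34 log2 folds were positive on that scale; relative to all genes, the median of the set stayed close to 0 on both scales.

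**Figure D2:**
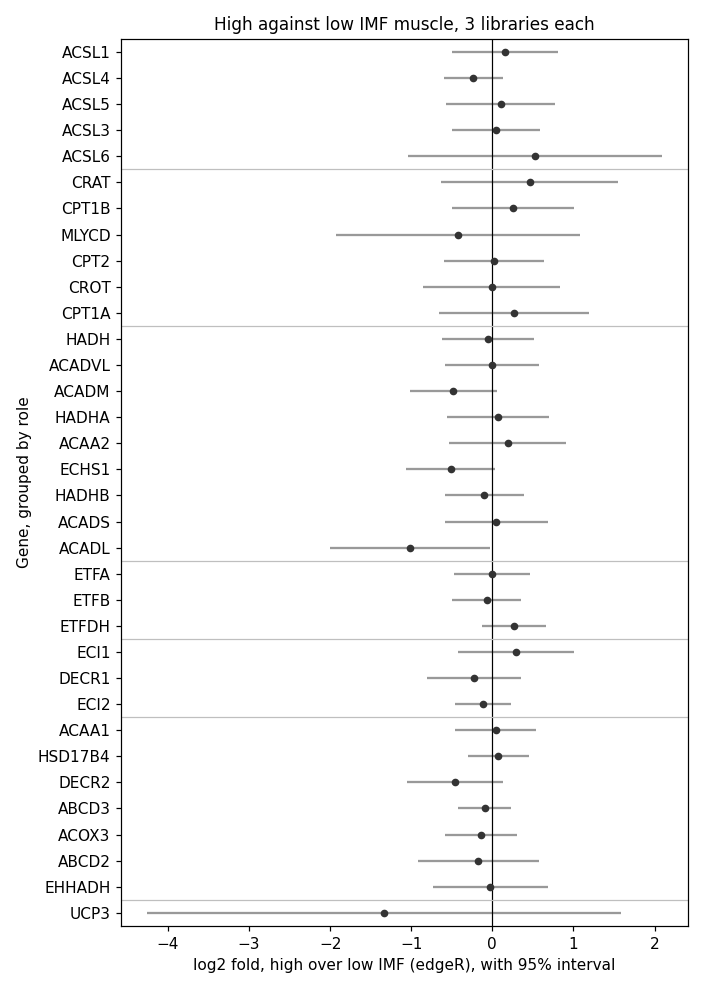
Log2 fold of high over low IMF muscle (edgeR, 3 libraries a group) for the 34 genes, grouped by role, with the 95% interval from the quasi-likelihood F statistic; the vertical line marks no difference. The interval of ACADL (-2.002 to -0.029) is the only one that leaves out 0, before any adjustment for the number of genes.

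In the first steps of the pathway, activation and the carnitine shuttle, the groups overlapped for every gene but ACSL4. ACSL1, the main muscle acyl-CoA synthetase, reached 255.3, 250.4 and 404.2 CPM in the 3 high IMF libraries, in replicate order, against 199.1, 307.0 and 308.4 CPM in the 3 low ones. The log2 fold was 0.16 with a 95% interval of -0.49 to 0.81 (edgeR adjusted p = 0.953). ACSL4, which prefers arachidonic acid, reached 41.8, 39.4 and 42.8 CPM in high IMF muscle, against 56.5, 44.3 and 45.1 CPM in low IMF muscle, so that all 3 high IMF libraries lay below all 3 low ones. Its log2 fold was -0.23 ± 0.16 (SE; adjusted p = 0.851 in edgeR), and -0.13 without low IMF replicate 1. The gap between the nearest libraries, 42.8 and 44.3 CPM, was small, and the groups overlapped when counts were scaled by library size only.

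CPT1B reached 219.1, 86.8 and 169.2 CPM in high IMF muscle, against 124.2, 141.3 and 132.4 CPM in low IMF muscle. The highest and the lowest of the 6 values were both from high IMF muscle, while the low IMF libraries stayed within 124.2 to 141.3 CPM. Its log2 fold was 0.26 with a 95% interval of -0.50 to 1.01 (edgeR adjusted p = 0.935), which became 0.53 when high IMF replicate 2 was left out and -0.07 when replicate 1 of that group was. CPT2, which turns acylcarnitine back to acyl-CoA on the inner membrane, measured 36.6 ± 10.01 CPM (SD, n = 3) in high and 36.2 ± 7.86 CPM in low IMF muscle.

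CPT1A, CRAT, CROT and MLYCD were all lowest in low IMF replicate 1. CRAT, carnitine acetyltransferase, which buffers acetyl-CoA as acetylcarnitine, reached 588.6, 638.8 and 1099 CPM in high IMF muscle, against 237.7, 757.4 and 698.7 CPM in low IMF muscle. It had the highest mean CPM of the set, though not the highest value in low IMF replicate 1, its lowest value was in low IMF replicate 1 and its highest in high IMF replicate 3, and the groups overlapped (log2 fold 0.46, 95% interval -0.64 to 1.55, adjusted p = 0.916 in edgeR). Without low IMF replicate 1 the log2 fold was 0.08. MLYCD, which breaks down malonyl-CoA, the inhibitor of carnitine palmitoyltransferase 1, measured 74.8, 60.7 and 124.5 CPM against 25.0, 164.9 and 159.7 CPM. The values of single libraries of MLYCD, ACSL1, ECI1 and DECR1 were chosen for print after they were seen. The mean of low IMF replicates 2 and 3 was 6.49 times the value of low IMF replicate 1 for MLYCD, 3.06 times for CRAT, 2.83 times for CPT1A and 2.56 times for CROT, the peroxisomal carnitine octanoyltransferase. For CPT1B and CPT2 it was only 1.10 and 1.48 times. The 6 genes grouped as carnitine shuttle, which include MLYCD, had a level (the median of log2 CPM minus each gene's mean) of -1.07 in low IMF replicate 1 and of -0.31 to 0.35 in the other 5 libraries. This median does not describe CPT1B and CPT2.

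**Figure D3:**
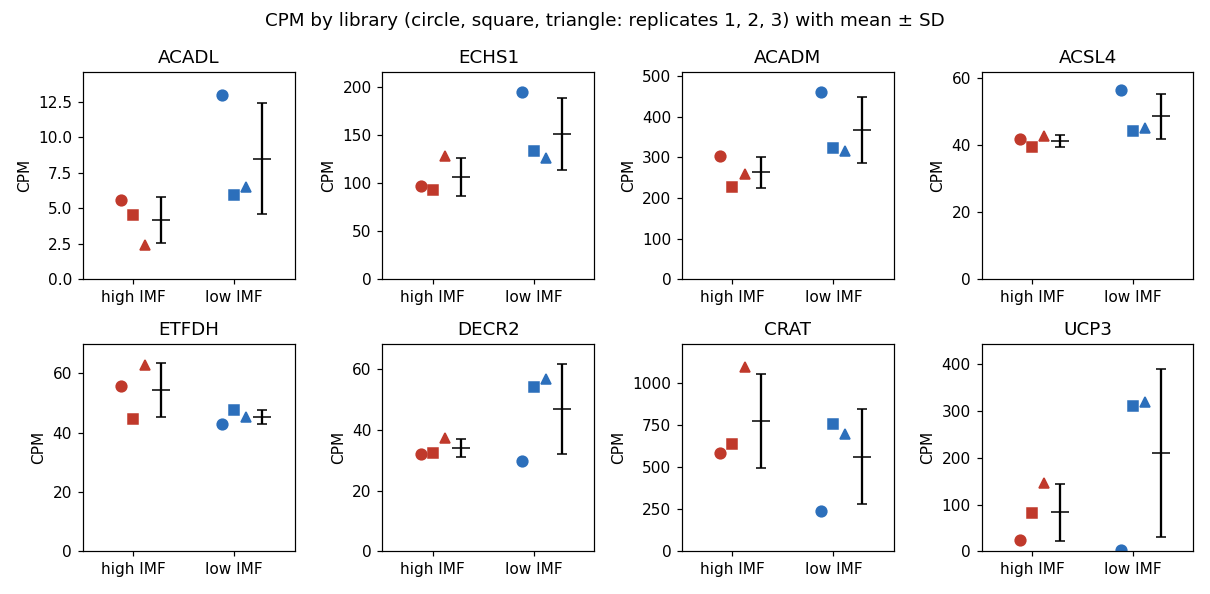
CPM of the 8 genes of smallest p in the 6 libraries; red symbols are high and blue symbols low IMF libraries, circles, squares and triangles are replicates 1, 2 and 3, and the black marks are the mean ± SD of 3. Low IMF replicate 1 is the highest library for ACADL, ECHS1, ACADM and ACSL4 and the lowest for ETFDH, DECR2, CRAT and UCP3.

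Among the enzymes of the mitochondrial spiral, ACADL and ACADM had lower values in high IMF muscle while ACADVL and ACADS overlapped between the groups. ACADL reached 5.59, 4.54 and 2.43 CPM in high IMF muscle, against 13.0, 5.94 and 6.52 CPM in low IMF muscle. Every high IMF library was below every low one, and low IMF replicate 1 was the highest. The log2 fold was -1.02 ± 0.42 (SE; adjusted p = 0.675 in edgeR). Leaving out low IMF replicate 1 gave -0.58, leaving out high IMF replicate 1 gave -1.29, and by library size only the groups overlapped. ACADM measured 302.3, 226.0 and 258.9 CPM against 460.3, 323.6 and 315.5 CPM, also with the low IMF libraries above the high ones (log2 fold -0.48 ± 0.23 SE, adjusted p = 0.736 in edgeR), and this order too was lost by library size only. Its log2 fold was -0.30 without low IMF replicate 1. ACADVL, by contrast, measured 587.2, 376.0 and 579.0 CPM against 598.8, 489.2 and 458.4 CPM, with a log2 fold of -0.0040 and a 95% interval of -0.58 to 0.57. ACADS, the short-chain enzyme, measured 101.3 ± 30.6 CPM in high and 97.8 ± 19.4 CPM in low IMF muscle (SD, n = 3).

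ECHS1, the short-chain enoyl-CoA hydratase, reached 96.5, 92.8 and 128.4 CPM in high IMF muscle, against 194.0, 132.8 and 126.3 CPM in low IMF muscle. High IMF replicate 3 lay just above low IMF replicate 3, and by library size only the groups did not overlap. The log2 fold was -0.51 ± 0.23 (SE; adjusted p = 0.719 in edgeR), and -0.30 without low IMF replicate 1. HADH measured 418.2, 273.4 and 436.9 CPM against 335.4, 426.9 and 411.2 CPM. The lowest value of HADH was in high IMF replicate 2, and the groups overlapped (log2 fold -0.06, 95% interval -0.62 to 0.51). HADHA and HADHB measured 217.9 ± 60.3 and 101.8 ± 20.2 CPM in high and 207.5 ± 44.9 and 109.0 ± 16.1 CPM in low IMF muscle. ACAA2, the mitochondrial thiolase that cleaves off acetyl-CoA, measured 351.3 CPM in high IMF replicate 1 and 166.0 to 244.6 CPM in the other 5 libraries.

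The electron transfer genes ETFA, ETFB and ETFDH had narrow ranges, with the highest library 1.48, 1.41 and 1.47 times the lowest. ETFA reached 115.6, 118.0 and 170.8 CPM in high IMF muscle, against 127.7, 139.6 and 138.4 CPM in low IMF muscle (log2 fold -0.0045, 95% interval -0.47 to 0.47). ETFDH, the membrane dehydrogenase that hands the electrons to ubiquinone, measured 55.9, 44.6 and 62.9 CPM against 42.9, 47.6 and 45.4 CPM. Only high IMF replicate 2 fell within the low IMF range. The log2 fold was 0.26 ± 0.17 (SE; adjusted p = 0.844 in edgeR). With library size only, all 3 high IMF libraries were above the low ones for ETFA and ETFDH, and ETFDH had a log2 fold of 0.39 (adjusted p = 0.648 in edgeR), on a scale where the median of all genes was 0.15.

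The auxiliary enzymes ECI1, ECI2 and DECR1, which handle the double bonds of unsaturated fatty acids, overlapped between the groups. ECI1 reached 131.1, 84.3 and 144.5 CPM in high IMF muscle, against 138.5, 80.3 and 76.4 CPM in low IMF muscle. DECR1 reached 64.6, 65.2 and 111.9 CPM in high IMF muscle, against 104.2, 89.5 and 89.3 CPM in low IMF muscle, and leaving out high IMF replicate 3 moved its log2 fold from -0.23 to -0.54 (adjusted p = 0.268 in edgeR).

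Of the 7 peroxisomal genes, DECR2, the peroxisomal dienoyl-CoA reductase, had the smallest p. It reached 32.2, 32.5 and 37.4 CPM in high IMF muscle, against 29.9, 54.1 and 56.6 CPM in low IMF muscle. Low IMF replicate 1 lay below all high IMF libraries and the other low IMF libraries above them. The log2 fold was -0.46 ± 0.25 (SE; adjusted p = 0.785 in edgeR). Without low IMF replicate 1 it was -0.71 (adjusted p = 0.299 in edgeR). DESeq2 then called DECR2 (adjusted p = 0.0201), the only one of the 34 genes that DESeq2 called with 1 library left out. The low group was then replicates 2 and 3 alone, which were nearly alike. The p-values without low IMF replicate 1 therefore cover little variation among low IMF libraries. DESeq2 then also called genes outside the set, as counted in the last section. The thiolase ACAA1 measured 40.8 ± 10.7 CPM in high and 39.7 ± 1.95 CPM in low IMF muscle, the D-bifunctional protein gene HSD17B4 52.8 ± 3.99 and 50.1 ± 6.82 CPM, and the fatty acyl-CoA transporter ABCD3 32.0 ± 2.66 and 34.3 ± 0.744 CPM (SD, n = 3). The acyl-CoA oxidase ACOX3, the L-bifunctional enzyme EHHADH and the transporter ABCD2 had log2 folds of -0.14, -0.02 and -0.18, each with an interval that held 0. The row matched by identifier to PHYH, the phytanoyl-CoA hydroxylase of branched-chain breakdown, measured 24.7, 24.4 and 40.3 CPM against 22.1, 33.1 and 27.8 CPM.

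UCP3, an uncoupling protein of the muscle inner mitochondrial membrane whose transcript is known to follow fatty acid supply, had the widest range of the set. It reached 24.0, 81.6 and 145.8 CPM in the 3 high IMF libraries, in replicate order, against 4.002, 309.5 and 319.6 CPM in the 3 low ones. Low IMF muscle held both the lowest value, from 192 reads, and the 2 highest, which were 78.6 times the lowest on average. The log2 fold of -1.33 had a 95% interval of -4.26 to 1.59 (edgeR adjusted p = 0.906), and without low IMF replicate 1 it was -1.93 (adjusted p = 0.477 in edgeR). Over the fits without 1 library the log2 fold of UCP3 ran from -2.003, without high IMF replicate 3, to -0.91, without low IMF replicate 3, and it was -0.36 with the replicate block and -0.18 in limma-voom. Without low IMF replicate 1 MLYCD also reached an unadjusted p under 0.05 (log2 fold -0.92, adjusted p = 0.47 in edgeR). Low IMF replicates 2 and 3, then the whole low group, were nearly alike. C2CD3, a centriole gene that shares ground with UCP3 in RefSeq, was at 12.9 to 19.2 CPM in all 6 libraries.

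**Figure D4:**
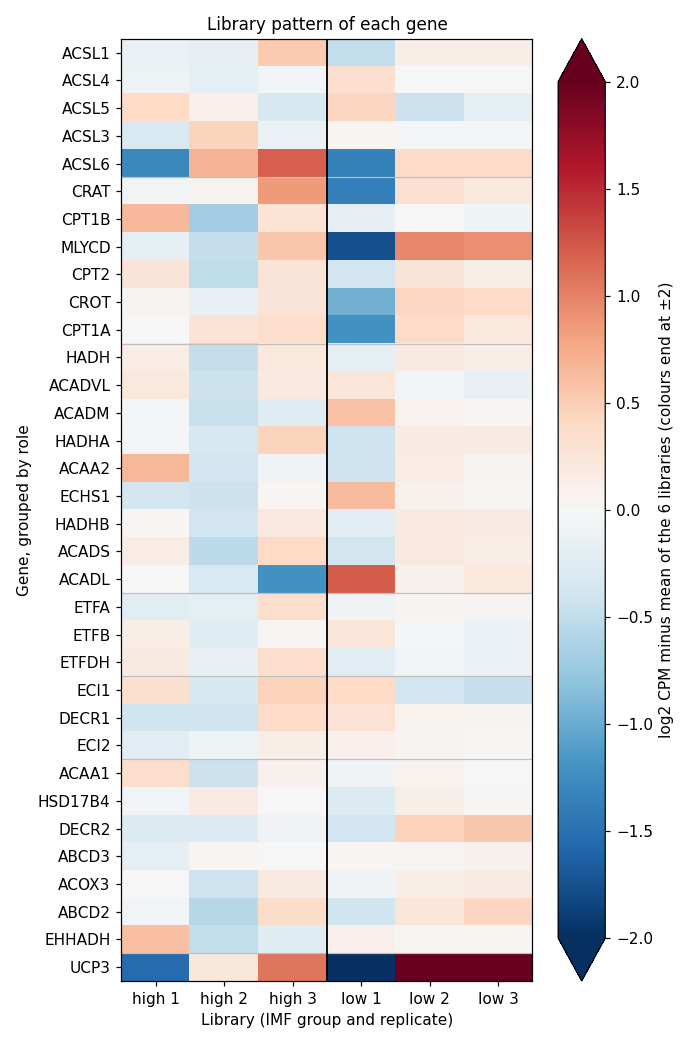
Log2 CPM of each of the 34 genes in each library minus the mean of the 6 libraries, grouped by role; red is above and blue below the gene's mean, the colours end at ±2, and the black line parts high from low IMF. The column of low IMF replicate 1 holds blue (strongest for UCP3 and MLYCD, then CRAT, ACSL6, CPT1A and CROT) and red. The red is clear for ACADL and paler for ECHS1 and ACADM. The columns of low IMF replicates 2 and 3 are nearly alike.

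Counted over the set, low IMF replicate 1 was the lowest library for 12 and the highest for 7 of the 34 genes, 55.9% in all, against 44.6% of all genes. It was lowest for 35.3%, against 21.2% of all genes, and highest for 20.6%, against 23.4%. It differed from the mean of low IMF replicates 2 and 3 by at least 1.5-fold for 12 genes (35.3%), the same share as over all genes (35.3%), with 9 lower (26.5%) and 3 higher (8.82%), where 18.5% of all genes were lower and 16.9% higher. High IMF replicate 2 was the lowest library for 14 genes (41.2%), against 14.6% of all genes, and high IMF replicate 3 the highest for 12 (35.3%), against 22.3%. The level of the 34 genes was -0.02, -0.31 and 0.20 in high IMF muscle, against -0.17, 0.11 and 0.07 in low IMF muscle. The groups did not overlap for 3 of the 34 genes (ACADL, ACADM and ACSL4, all lower in high IMF), where 13% of all genes were without overlap, 6.86% higher and 6.1% lower. Scaled by library size only the count was again 3, but of other genes: ECHS1 lower and ETFA and ETFDH higher in high IMF. Over all genes that scale left 13.1% without overlap, 1672 genes higher and 409 lower, where TMM had 1093 and 972.

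Other genes of the pathway or near it were read from a list of 45, 43 of which were in the table and 41 tested. The list also held genes outside fatty acid oxidation itself, HIBCH and PEX11A among them. In edgeR 0 passed the adjustment and the median log2 fold was -0.03. PEX11A (higher) and HIBCH (lower) had an unadjusted p under 0.05, where 4.53% of all genes were higher and 2.74% lower at that level. HIBCH, of valine breakdown, reached 18.6, 12.2 and 18.8 CPM in high IMF muscle, against 24.5, 24.9 and 24.7 CPM in low IMF muscle (adjusted p = 0.599 in edgeR). PEX11A, a factor of peroxisome division, measured 29.7, 37.8 and 27.6 against 23.2, 25.0 and 23.7 CPM (adjusted p = 0.677 in edgeR). The groups overlapped for neither HIBCH nor PEX11A. Of the 41 genes 2 were higher and 1 lower without overlap, where 6.86% and 6.1% of all genes were. ACAT1, the acetoacetyl-CoA thiolase, measured 177.7, 89.9 and 127.2 against 296.9, 165.6 and 162.4 CPM, with low IMF replicate 1 highest, as for ACADM and ECHS1.

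Of 34 regulators and PPAR targets (genes controlled by the fatty acid receptors of the PPAR family), 33 were tested and 0 passed in edgeR. Before adjustment 3 of them were higher and 3 lower with p under 0.05, where 4.53% and 2.74% of all genes were, with KLF15, UCP2, CD36 and FOXO1 first. UCP2, an uncoupling protein relative found in many tissues, reached 20.04, 15.6 and 13.4 CPM in high IMF muscle, against 6.003, 9.34 and 9.07 CPM in low IMF muscle (log2 fold 1.01 ± 0.25 SE, edgeR adjusted p = 0.51), with every high IMF library above every low one. The transcription factor FOXO1 measured 19.8, 24.5 and 22.9 against 32.1, 30.0 and 30.2 CPM (adjusted p = 0.568). KLF15 and the fatty acid transporter CD36 had log2 folds of -1.44 and -0.75 (adjusted p = 0.504 and 0.51), and both were called by DESeq2 (adjusted p = 0.00129 and 0.0417). The receptors PPARA and PPARD and the coactivator PPARGC1A had log2 folds of 0.15, -0.09 and -0.27 (adjusted p of at least 0.937). They, and ANGPTL4 and PDK4, were chosen after their values were seen. ANGPTL4, an inhibitor of lipoprotein lipase, measured 14.2, 8.82 and 12.9 CPM against 2.48, 39.98 and 32.4 CPM. Its lowest and highest libraries were both from low IMF muscle, as for UCP3. PDK4, the kinase that shuts off pyruvate entry to the mitochondrion, measured 171.4, 6.02 and 3.85 against 10.4, 77.2 and 71.2 CPM, another order of the libraries.

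Fibre type and mitochondrial genes also differed between single libraries. The 35 nuclear genes of the respiratory chain and citric acid cycle had levels of -0.37, -0.50 and 0.45 in high IMF muscle, against 0.06, 0.21 and 0.14 in low IMF muscle. All 35 log2 folds were negative with TMM scaling (30 of 35 with library size only, and 25 of 35 without high IMF replicate 2), and 0 reached an unadjusted p under 0.05, where 7.27% of all genes did. The median was -0.19, and it was -0.10, -0.05 and -0.54 without high IMF replicates 1, 2 and 3. The 34 fatty acid oxidation genes had a median of -0.01, and the difference between the lists was not tested. Fast fibre genes had a level of -1.79 in high IMF replicate 1 and of -0.12 to 0.76 in the others, and slow fibre genes were highest in high IMF replicate 1 (0.83) and low IMF replicate 1 (0.43). Their part in the levels of the 34 genes was not tested.

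**Figure D5:**
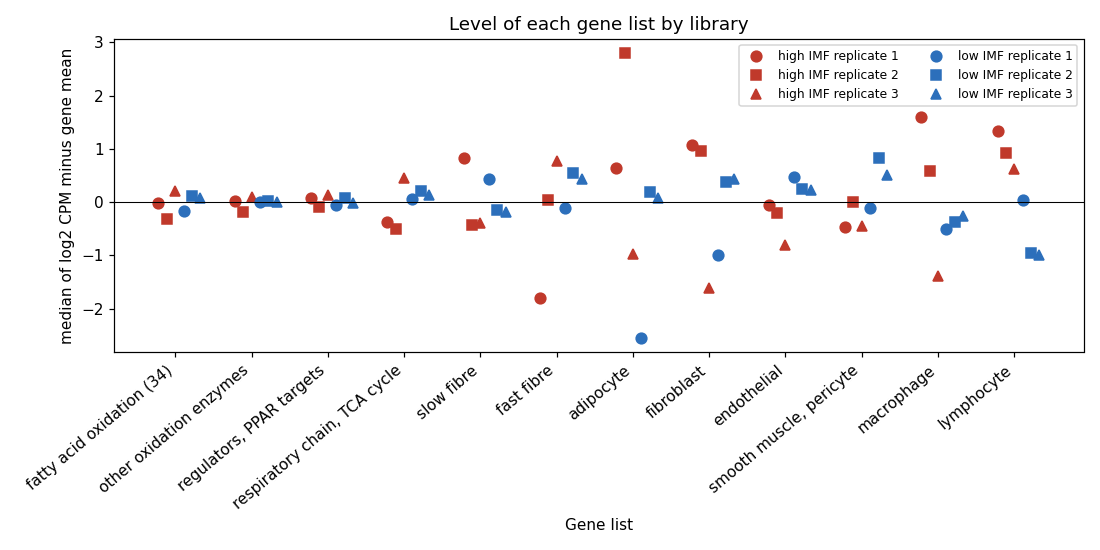
Level of each gene list in each library (each gene's log2 CPM relative to its own mean, as the median over the list); red symbols are high and blue symbols low IMF libraries, circles, squares and triangles are replicates 1, 2 and 3. The median of the fatty acid oxidation genes stays within -0.31 to 0.20. That of the adipocyte genes runs from -2.55 in low IMF replicate 1 to 2.80 in high IMF replicate 2. A median hides the spread of single genes. The median within-group SD of log2 CPM was 0.37 for the 34 genes and 0.35 over all genes.

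Markers of other cells differed between the libraries as well. The 8 adipocyte markers summed to 196.6, 491.5 and 66.8 CPM in high IMF muscle, against 146.0, 207.9 and 168.4 CPM in low IMF muscle, with leptin (LEP) at 0 in low IMF replicate 1. The 6 fibroblast markers summed to 192.9 to 1208 CPM in the high and 273.5 to 666.5 CPM in the low, the 6 endothelial markers to 399.3 to 704.7 and 790.7 to 921.4, the 5 smooth muscle and pericyte markers to 603.1 to 865.9 and 896.8 to 1302, the 6 macrophage markers to 13.2 to 82.3 and 20.2 to 21.0, and the 6 lymphocyte markers to 8.37 to 11.2 and 3.26 to 8.73 CPM. High IMF replicate 2, the lowest library for 14 of the 34 genes (41.2%, against 14.6% of all genes), had the highest adipocyte level (2.80). Low IMF replicate 1, the lowest for 12 (35.3%, against 21.2%), had the lowest adipocyte level (-2.55). By summed CPM the highest adipocyte library was also high IMF replicate 2, but the lowest was high IMF replicate 3 (66.8 CPM). The lowest library thus depended on the measure. The part of these cells in the values of the 34 genes was not tested.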

How the data were processed

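Read counts per gene were deposited by the authors as whole numbers for 6 libraries. The submitters' processing notes name HISAT2 and the build mm9, a mouse build, whereas the table's gene names are those of donkey and horse; counter, annotation and strand setting: not given in the sources used here. Library preparation followed standard Illumina steps, and a HiSeq and a NovaSeq are both named in the labels. FPKM, as deposited and without TMM scaling, served only for levels per length, their sums and their ratios. The implied gene length varied by a median of 0.186% over the libraries. From the authors' comparison table (a fold ratio, its log2 and p-values, all deposited) only p-values are quoted, where named.

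Counts were tested with edgeR 4.0.16 in R 4.3.3 (TMM, filterByExpr, quasi-likelihood F-test, Benjamini-Hochberg over 15933 genes, threshold 0.05). The SE and 95% interval of a log2 fold come from its F statistic. Alternatives used DESeq2 1.42.0 and limma 3.58.1, and the edgeR, DESeq2 and limma-voom tests were tested on simulated data. The simulated counts had the same relative spread for every gene and no library set apart or nearly repeated. They therefore do not show how the tests behave on libraries as unlike as these. A count of 3 reads, the limit that a count of 0 allows, was 0.0632 to 0.0768 CPM; it covers counting error only. LOC numbers (876) were matched to symbols by gene identifier in RefSeq's gene table of the donkey, and older symbols by hand; 726 rows with no gene name held 0.704% of reads and stayed in. Of the 34 genes 11 overlap another gene there, HADHA and HADHB each other, so without a known strand setting their reads may be shared.

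The genes and lists were chosen with earlier results of these data known. Values of every library are given for the 8 genes of smallest p, the 4 of highest FPKM, CPT1B and any gene whose groups do not overlap, and up to 4 genes of smallest p are named from another list. 1 gene of the list of other enzymes is not reported here by name.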

Additional observations from a re-analysis of the deposited data

How the results depend on the processing

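With all 6 libraries the 8 alternatives called 0 of the 34 genes. Over all genes the DESeq2 Wald test called 194 (114 higher, 80 lower), limma-voom and each edgeR setting 0. At an unadjusted p under 0.05 there were 2 of the 34 genes with DESeq2, 0 with the stricter filter on low counts, 0 with limma-voom and 1 in the others. Leaving out 1 library, edgeR had 1 to 3 of the 34 genes at that level and called 0 to 3 genes in all, the 3 without high IMF replicate 1. The share of all genes at that level was taken for the main fit only (7.27%). The counts of the other fits therefore cannot be set against a share of their own. With DESeq2, an alternative chosen after seeing the data, leaving out high IMF replicates 1, 2 and 3 gave 301, 131 and 623 calls, and leaving out low IMF replicates 1, 2 and 3 gave 430, 61 and 73, with 1 of the 34 genes called, DECR2, without low IMF replicate 1. In that fit the low group was only replicates 2 and 3, which were nearly alike. Of the 476 gene values under the 8 alternatives with all libraries and the 6 edgeR fits without 1 library, 0 passed the adjustment (smallest adjusted p = 0.268). The median log2 fold of the 34 genes ran from -0.12 to 0.07 without 1 library and was 0.13 with library size only.

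The log2 fold changed sign for 11 genes with all libraries. With library size only it was 0.12 for ACADVL, 0.036 for HADHB, 0.079 for HADH, 0.11 for ETFA, 0.062 for ETFB, 0.0077 for ECI2, 0.14 for EHHADH, 0.15 for CROT and 0.041 for ABCD3. With the stricter filter it was 0.0079 for ACADVL, 0.0069 for ETFA and 0.0039 for CROT, with limma-voom -5.7e-05 for CPT2 and 0.12 for CROT, and with low IMF replicates 2 and 3 summed 0.012 for ETFA, -0.024 for ACSL5 and 0.18 for CROT. Apart from library size only, whose construction shifts all genes, the cause was not tested.

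Without 1 library in turn, 19 genes had log2 folds on both sides of 0, and their ranges were -0.44 to 0.013 for ABCD2, -0.16 to 0.21 for ACAA1, -0.19 to 0.38 for ACAA2, -0.16 to 0.25 for ACADS, -0.13 to 0.16 for ACADVL, -0.11 to 0.26 for ACSL1, -0.23 to 0.18 for ACSL3, -0.092 to 0.38 for ACSL5, -0.099 to 0.54 for CPT1A, -0.071 to 0.53 for CPT1B, -0.16 to 0.21 for CPT2, -0.35 to 0.19 for CROT, -0.44 to 0.17 for EHHADH, -0.22 to 0.077 for ETFA, -0.17 to 0.031 for ETFB, -0.18 to 0.11 for HADH, -0.17 to 0.21 for HADHA, -0.23 to 0.033 for HADHB, -0.043 to 0.15 for HSD17B4.

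The replicate block gave 0 called genes, 1 of the 34 genes at an unadjusted p under 0.05 (ACADL, adjusted p = 0.522 in edgeR), a median log2 fold of -0.03 and 0.097 for CROT. Same-numbered libraries deviated together with r = 0.229, 0.21 and 0.0373. High IMF replicate 1 had r = -0.21 with each of low IMF replicates 2 and 3, and high IMF replicate 2 had 0.251 with low IMF replicate 3. Because low IMF replicates 2 and 3 are nearly alike, these values cannot decide whether the numbers pair the libraries. The labels do not say that they do, so the main fit had no block.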
